A study of Mus musculus with 2 samples.

Results

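The lysosomal genes described here are 51 of the 54838 genes counted in sciatic nerve macrophages. They are 25 named genes of lysosomal enzymes, their cofactors and lysosomal membrane proteins, and the 26 genes whose symbols begin with Atp6v or Atp6ap, leaving out copies marked as pseudogenes. By role they are 13 enzymes, 4 soluble cofactors, 8 membrane proteins, 13 V1 and 9 V0 subunits of the V-ATPase, and 4 accessory or similarly named genes. Of the 51, 45 had at least 1 UMI (1 counted RNA molecule) in cells, and 38 reached a mean of 20 CPM (UMIs of a gene, scaled so that each library has the same total) over both libraries and were compared by fold.

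The cells came from Flt3-Cre LSL-YFP fl/fl mice, in which progeny of Flt3-expressing progenitors carry YFP. The study reads YFP-positive macrophages as derived from hematopoietic stem cells (HSC) and YFP-negative ones as embryonic in origin. For these cells the reading rests on the lineage label, which the study describes as also marking fetal monocyte progeny. The study traced embryonic precursors separately, in other mice. Both groups here came from mice of the same genotype. Sciatic nerves of 19 male mice aged 10 to 12 weeks were pooled, CD64+ CD45int cells were sorted by YFP, and 1 library was made of each group. With 1 library per group there is no replicate error, no test of origin was made, and every interval below covers counting error only.

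Cells were barcodes with at least 500 UMIs and 200 genes. There were 1045 YFP-negative cells with 2418044 UMIs and a median of 2233 per cell, and 4053 YFP-positive cells with 6747554 UMIs and a median of 1484. The labelled cell type held: all 11 macrophage markers were detected in both libraries, with a summed 20322 and 20393 CPM, while T cell, monocyte and mast cell markers summed to at most 0.889 CPM. B cell, dendritic cell and fibroblast markers summed to between 23.6 and 94.6 CPM. Neutrophil markers summed to 171 and 108 CPM, all from *Mmp9* and *Csf3r*, with *S100a8*, *S100a9*, *Retnlg* and *Ly6g* at 0. Schwann cell markers summed to 704 and 647 CPM, and mural cell markers to 9.93 and 117 CPM. 7 barcodes were called as cells in both libraries.

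Lysosomes digest proteins, lipids, glycans and nucleic acids with acid hydrolases, and macrophages rely on them to clear debris and, in nerve, myelin. The lumen is acidified by the V-ATPase, a rotary pump in which the cytosolic V1 sector splits ATP and the membrane V0 sector moves protons. Soluble helpers such as the saposins present lipids to the enzymes, and heavily glycosylated membrane proteins such as LAMP-1 line the inside of the membrane. Many of these genes carry a CLEAR element, a palindromic E-box bound by TFEB and its relatives, near their start.

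To show this element where it occurs, the RefSeq promoters of GRCm38.p6 (250 bases before to 50 bases after each start) were searched. A promoter was given for 42 of the 51 genes. The letters TCACGTGA, which read the same on both strands, stood in the promoters of 4 of the 42, *Mcoln1*, *Atp6v0d1*, *Atp6v1a* and *Atp6v0e*, against 1.12% of all 27025 genes with a promoter (0.974% of all 32851 promoters). The longer form of 10 letters, which adds a G before and a C after, was in none of the 42 and in 0.37% of all genes (0.326% of promoters). The shorter CACGTG, which is contained in both, was in 8 of the 42 and in 8.09% of all genes (7.15% of promoters). The windows below have the 8 letters in capitals.
Mcoln1, chr8:3500462-3500491, plus strand, 46 bases before the start: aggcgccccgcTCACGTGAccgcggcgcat
Atp6v0d1, chr8:105566050-105566079, minus strand, 4 bases before the start: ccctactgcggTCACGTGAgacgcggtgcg
Atp6v1a, chr16:44139373-44139402, minus strand, 132 bases before the start: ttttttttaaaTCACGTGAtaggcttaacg
Atp6v0e, chr17:26676387-26676416, plus strand, 2 bases after the start: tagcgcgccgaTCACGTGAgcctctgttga
Repeated short forms, in capitals, lay close to the start of *Lamp1* (4 copies) and *Atp6v0b* (2 copies). *Mcoln1*, among the genes with the lowest counts, also held the short form 71 bases before its start. Its other copy, 45 bases before the start, is the one inside the 8 letters shown above.
Lamp1, chr8:13159096-13159125, plus strand, copies 61 and 45 bases before the start: atatCACGTGgtccagcgccCACGTGatgc
Lamp1, chr8:13159128-13159157, plus strand, copies 28 and 15 bases before the start: actggCACGTGaccacatCACGTGcggaac
Atp6v0b, chr4:117887339-117887368, minus strand, copies 36 and 18 bases before the start: ggtCACGTGgggtcggcgcatCACGTGcgc
A match of letters is a description of the sequence and not a bound site. The genes with the 8 letters did not stand together in level, with 17.4 and 19.3 CPM for *Mcoln1* (YFP-negative and YFP-positive) and 268 and 271 CPM for *Atp6v0e*.

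Among the enzymes, *Hexa*, the alpha subunit of beta-hexosaminidase, had the most UMIs, with 429 CPM (95% Poisson interval 404 to 456) in the YFP-negative and 419 CPM (404 to 435) in the YFP-positive library. *Asah1*, acid ceramidase, stood at 313 and 317 CPM, and *Man2b1*, lysosomal alpha-mannosidase, at 322 and 261 CPM. *Fuca1*, alpha-fucosidase, *Ppt1*, palmitoyl-protein thioesterase, and *Gusb*, beta-glucuronidase, lay between 115 and 213 CPM. The acid lipase *Lipa*, the peptidase *Tpp1*, the acid phosphatase *Acp2*, the sialidase *Neu1*, the acid glucosidase *Gaa* and the beta-galactosidase *Glb1* lay between 25.6 and 93.1 CPM. *Acp5*, the tartrate-resistant acid phosphatase known from osteoclasts, had 6 and 21 UMIs, or 2.48 and 3.11 CPM. The 10x method counts 1 end of each RNA molecule, so these levels, in CPM, are not divided by gene length.

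The soluble cofactors held the highest level of the set. *Psap* (chr10:60277627-60302597), the precursor of the saposins, stood at 971 CPM (932 to 1011) and 1039 CPM (1014 to 1063). *Npc2*, which hands cholesterol to NPC1, followed with 817 and 845 CPM, and *Grn*, which encodes progranulin, the precursor of the granulins, with 530 and 475 CPM. *Gm2a*, the activator that lifts GM2 ganglioside to hexosaminidase, was lower at 155 and 174 CPM.

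Of the membrane proteins, *Laptm5*, a transporter-like protein of blood cells, had 660.0 and 650.5 CPM, *Lamp1* 636 and 559 CPM, and *Cd68*, the macrophage member of the LAMP family, 510.3 and 550.3 CPM. *Laptm4a* had 386 and 399.6 CPM and *Lamp2* 262 and 280.4 CPM. *Scarb2*, also called LIMP-2, *Npc1*, the cholesterol exporter, and *Mcoln1*, a calcium channel, were between 17.4 and 49.2 CPM in both libraries.

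**Figure D1:**
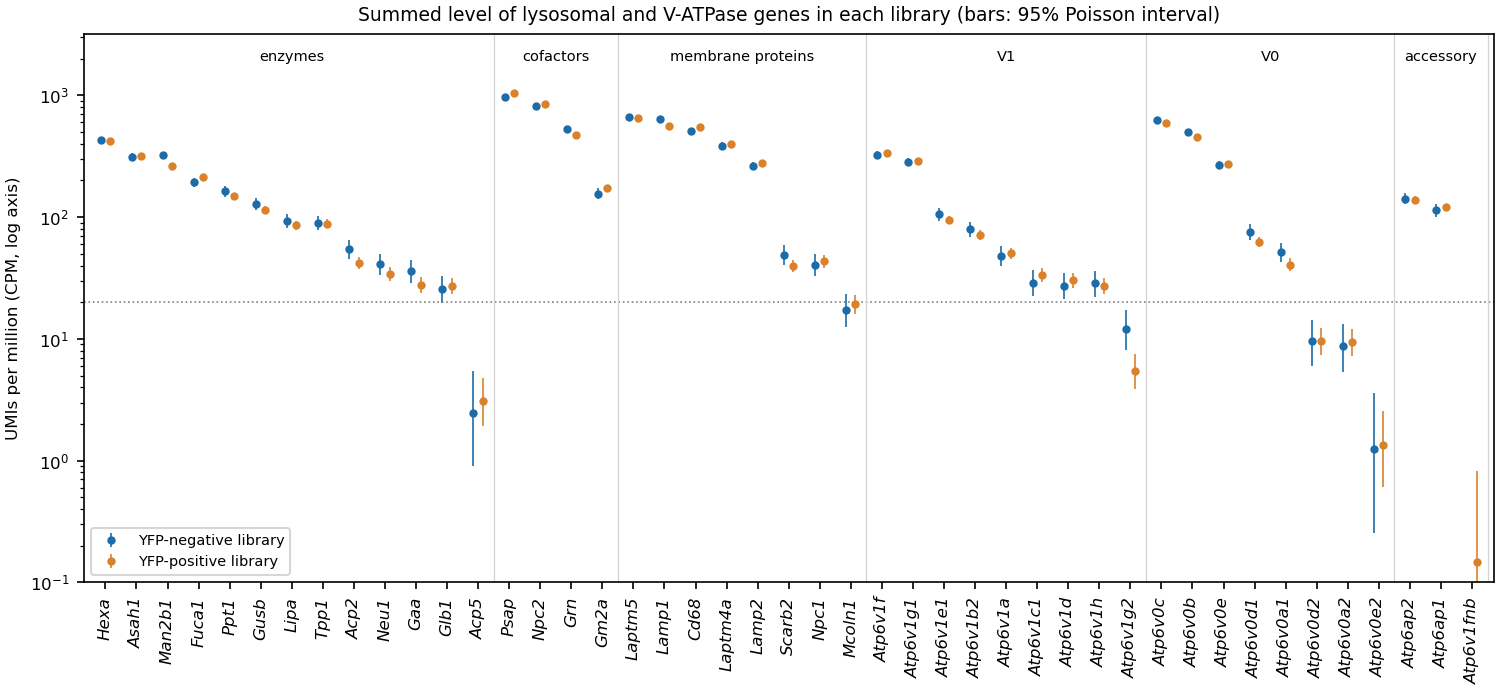
Level of each detected gene in CPM on a log axis, grouped by role, in the YFP-negative (blue) and YFP-positive (orange) library, with exact Poisson 95% intervals; the dotted line marks 20 CPM. Levels span from 1039 CPM for Psap to 0.148 CPM for Atp6v1fnb, and the points of the libraries nearly overlie each other for most genes.

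For the V-ATPase, each subunit with paralogs in the list had most or all of its UMIs from 1 of them. Of the catalytic sector, *Atp6v1a* (subunit A) had 48.0 and 50.4 CPM and *Atp6v1b2* (subunit B) 79.8 and 71.1 CPM, while *Atp6v1b1*, known from kidney, had 0 UMIs. *Atp6v1c1* had 28.9 and 33.6 CPM against 0 UMIs of *Atp6v1c2*, and *Atp6v1e1* 106 and 94.997 CPM against 0 UMIs of *Atp6v1e2*. Of the G subunits in the peripheral stalk, *Atp6v1g1* had 285 and 287 CPM, *Atp6v1g2*, known from neurons, 12.0 and 5.48 CPM, and *Atp6v1g3* 0 UMIs. A count of 0 allows up to 1.24 CPM in the YFP-negative and 0.445 CPM in the YFP-positive library (3 UMIs). Besides *Atp6v1a*, the V1 subunits without a paralog in the list were *Atp6v1f* with 326 and 334 CPM, *Atp6v1d* with 27.3 and 30.4 CPM and *Atp6v1h* with 28.5 and 27.3 CPM.

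In V0, the proteolipids of the proton ring led. *Atp6v0c* (chr17:24163866-24169702), the c subunit, which is present in several copies per pump, had 631 CPM (599 to 663) and 591 CPM (572 to 609), and *Atp6v0b*, its relative in the ring, 502 and 457 CPM. *Atp6v0e* had 268 and 271 CPM against 1.24 and 1.33 CPM of *Atp6v0e2*. *Atp6v0d1* had 75.3 and 62.2 CPM against 9.51 and 9.63 CPM of *Atp6v0d2*, known from osteoclasts. Of the a subunits, which decide where the pump sits, *Atp6v0a1* had 51.3 and 40.6 CPM, *Atp6v0a2* 8.68 and 9.34 CPM, and *Atp6v0a4* 0 UMIs. *Tcirg1*, which encodes the a3 subunit under another name and is not among the 51, had 24.0 and 25.2 CPM. The accessory subunits *Atp6ap1* and *Atp6ap2* (the prorenin receptor) had 114 and 121 CPM and 141 and 139 CPM. *Atp6ap1l* had 0 UMIs, and *Atp6v1fnb* had 0 and 1 UMI.

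To examine whether the lysosomal genes followed the origin of the macrophages, their levels were compared as log2 ratios of CPM + 1, YFP-positive over YFP-negative. None of the 38 genes passed 1.5-fold in either direction, while 7.3% of the 5531 genes with a mean of at least 20 CPM did (1.54% higher in YFP-positive and 5.77% higher in YFP-negative cells). The median log2 ratio of the 38 genes was -0.02, and that of all genes tested was -0.00. The set as a whole took 0.967% of UMIs (0.954 to 0.979) in YFP-negative and 0.949% (0.942 to 0.957) in YFP-positive cells, a log2 ratio of -0.03 (-0.05 to -0.00). When each cell was weighted equally the ratio of the set was -0.10, and with at least 1000 UMIs per cell it was -0.00.

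The lowest ratios were those of *Acp2* (-0.37, interval -0.67 to -0.07), *Gaa* (-0.36, -0.73 to 0.01), *Atp6v0a1* (-0.33, -0.63 to -0.02), *Man2b1* (-0.30, -0.43 to -0.18) and *Scarb2* (-0.30, -0.61 to 0.01). The highest were those of *Atp6v1c1* (0.21, -0.17 to 0.60), *Gm2a* (0.16, -0.00 to 0.33), *Atp6v1d* (0.15, -0.24 to 0.56), *Fuca1* (0.14, -0.01 to 0.29) and *Cd68* (0.11, 0.02 to 0.20). The counting interval excluded 0 for 10 of the 38 genes, against 25.4% of all genes tested. Higher in YFP-positive cells were *Psap* (0.10, 0.03 to 0.17) and *Cd68*. Higher in YFP-negative cells were *Man2b1*, *Acp2*, *Grn* (-0.16, -0.25 to -0.06), *Lamp1* (-0.18, -0.27 to -0.10) and 4 V0 subunits. These are 2 and 8 of the 38 genes, where 11.6% and 13.8% of all genes tested were higher in YFP-positive and YFP-negative cells.

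The direction of some of these small differences changed with the setting. *Psap* was lower in YFP-positive cells (-0.11) when each cell counted equally, and *Atp6v0a1* was higher (0.18) when each cell was thinned to 600 UMIs. *Man2b1*, *Acp2*, *Grn* and *Lamp1* remained lower in YFP-positive cells under each of the 12 settings computed for single genes, with log2 ratios of -0.47 to -0.27, -0.46 to -0.35, -0.31 to -0.13 and -0.20 to -0.13. The settings reuse the same UMIs, and these genes had already been picked by intervals that excluded 0, so this is no independent support. *Gaa* and *Scarb2* were past 1.5-fold (-0.81 and -0.78) with thinned counts. Thinning keeps a random draw of UMIs, which left *Atp6v0a1*, *Gaa* and *Scarb2* in 2.77%, 2.96% and 3.36% of YFP-negative cells. The draw was not repeated, and no interval was computed for the thinned ratios.

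By role, the V0 sector had a summed log2 ratio of -0.10 (-0.16 to -0.05), with the ring subunits *Atp6v0c* (-0.09, -0.18 to -0.01) and *Atp6v0b* (-0.14, -0.23 to -0.04) and the subunits *Atp6v0d1* (-0.27, -0.52 to -0.01) and *Atp6v0a1* below 0 and *Atp6v0e* at 0.02. The V1 sector was at -0.01 (-0.08 to 0.06), and the interval held 0 for each of its 8 genes tested. The enzymes were at -0.09 (-0.13 to -0.04), the cofactors at 0.03 (-0.01 to 0.08; below 0 with each cell weighted equally, at -0.074, or thinned, at -0.081), the membrane proteins at -0.01 (-0.05 to 0.03) and the accessory genes at 0.03 (-0.11 to 0.16). The only detected gene with a ratio near 2-fold was *Atp6v1g2*, at -1.003 (-1.65 to -0.33) on 29 and 37 UMIs, which is under the level set for comparison.

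**Figure D2:**
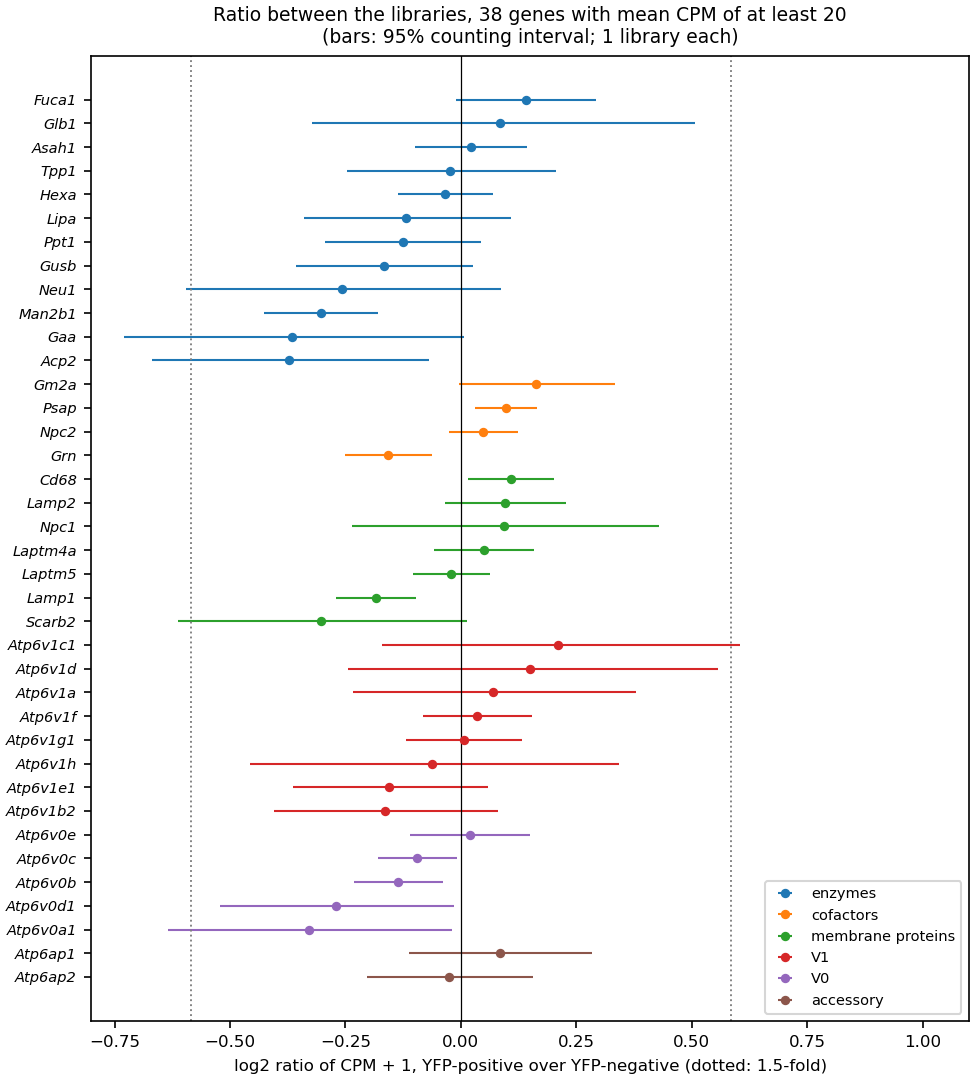
Log2 ratio of CPM + 1 in YFP-positive over YFP-negative cells for the 38 genes with a mean of at least 20 CPM, coloured by role, with 95% counting intervals; dotted lines mark 1.5-fold. All points lie between -0.37 (Acp2) and 0.21 (Atp6v1c1), inside the dotted lines.

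The share of cells with a UMI showed the same closeness. After each cell was thinned to 600 UMIs, which left 1012 and 3819 cells, *Psap* was found in 44.4% (exact binomial interval 41.3 to 47.5) and 43.1% (41.5 to 44.7) of cells, *Npc2* in 37.5% and 37.8%, and *Laptm5* in 34.0% and 33.0%. The median over the 38 genes was 8.65% of YFP-negative and 8.24% of YFP-positive cells, and without thinning it was 26.1% and 20.2%. All cells use lysosomes, so no cell type without these genes can serve as background. *Cd68* and *Laptm5*, known from macrophages and blood cells, were found in 3 and 5 of the 36 thinned cells of the Schwann-cell-like cluster 13 described below. In cluster 14, which carried mural cell and fibroblast markers, they were found in 0 and 1 of 27 thinned cells. Outside clusters 13 and 14 they were found in 26.2% and 32.4% of 4768 thinned cells. Before thinning, the median was 885 UMIs over all cells of cluster 13, 1597 in cluster 14 and 1635 outside both.

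Other genes of the lysosome were examined as lists of genes with the same biology. Of all genes tested between the libraries, 7.3% passed 1.5-fold. Their counting interval was above 0 for 11.6% and below 0 for 13.8%. Of 20 further hydrolases, 10 were tested and 0 passed 1.5-fold. The counting interval was above 0 for 2 and below 0 for 2 of the 10, the latter including *Pla2g15*, a lysosomal phospholipase, at -0.45 (-0.70 to -0.20). Of 12 cathepsins and legumain, 11 were tested and 0 passed, with *Ctsd* at -0.30 (-0.45 to -0.15), *Ctsl* at -0.23 (-0.47 to 0.02) and *Ctsb* at -0.21 (-0.26 to -0.16). Of 20 further membrane proteins and transporters, 11 were tested and 0 passed, with *Hgsnat* lowest at -0.56 (-0.87 to -0.25). The TFEB family and its regulators had 5 genes tested and 0 past the fold, with *Flcn* at -0.22 (-0.58 to 0.14).

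Past the fold were *Rragc*, a Rag GTPase that brings mTORC1 to the lysosome, at -0.62 (-0.96 to -0.27), and *Sorl1*, a sorting receptor, at 0.75 (0.27 to 1.24). They were 1 of 7 tested genes of the Ragulator, Rag GTPase and mTORC1 list and 1 of 7 tested genes of the list for delivery of lysosomal enzymes. As 7.3% of all genes tested passed 1.5-fold, these single calls among the 7 lists are no finding about the lists. For assembly and regulation of the V-ATPase, 0 of 7 tested genes passed, with *Ccdc115* at -0.37 (-0.61 to -0.13) and *Ncoa7* at -0.35 (-0.67 to -0.04). The medians of the 7 lists lay between -0.13 and -0.02.

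Across single cells, thinned to 600 UMIs, the 51 genes together gave a median of 6 UMIs per YFP-negative and 5 per YFP-positive cell, and 2 and 21 cells had none. The variance of this sum was 1.40 and 1.37 times its mean, where counting alone gives a ratio of 1. For pairs of the 38 genes the correlation lay near 0. Over 703 pairs the median Pearson r was 0.001 in the 1012 YFP-negative and 0.004 in the 3819 YFP-positive cells. The highest r in both libraries was that of *Psap* and *Grn*, whose protein products bind each other, at 0.12 and 0.11. Without cluster 7, described below, it was 0.11 and 0.08, and in the YFP-negative library another pair was higher, at 0.14. With 5 to 6 UMIs of the set per cell, counting error draws r of a pair toward 0. These values therefore cannot show whether the genes varied together, and are a description and no finding.

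The genes outside the set that varied most like its sum across thinned cells were *Apoe* (r = 0.27 and 0.25), *Ctsb* (0.20 and 0.21), *C1qb*, *C1qa*, *mt-Rnr2*, *Itm2b*, *Lgmn*, *H2-D1*, *Cd63* and *C1qc*. Each value was the correlation over cells of 1 library, and all genes of a cell share its free RNA. Every cell had the same total of 600 UMIs, so more UMIs of some genes leave fewer for others. *Ctsb*, *Lgmn* and *Cd63* encode further lysosomal proteins, and the C1q genes and *Apoe* are among the genes with the most UMIs in these cells. The lowest were ribosomal protein genes, led by *Rps28* (-0.18 and -0.16). These values include cluster 7, which had 7.56% ribosomal protein UMIs and the highest share of the set, and were not computed without it.

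To describe how the genes varied between kinds of cells, both libraries were clustered together without the 51 genes and without the pathway lists, which gave 14 clusters. Clusters are named by number and leading genes. The share of UMIs on the set ran from 0.612% in cluster 14 to 1.503% (1.46 to 1.55) in cluster 7. Among the other 12 clusters it stayed between 0.788% and 1.17%. *Atp6v1f* was the steadiest of the genes compared, with a 1.47-fold range of CPM + 1 over clusters 1 to 12, followed by *Atp6v0e* with 1.504-fold. *Gaa*, *Glb1*, *Npc1* and *Neu1* had the widest ranges, from 5.002-fold for *Glb1* to 16.9-fold for *Neu1*, with only 1 to 5 UMIs in the lowest cluster of each.

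**Figure D3:**
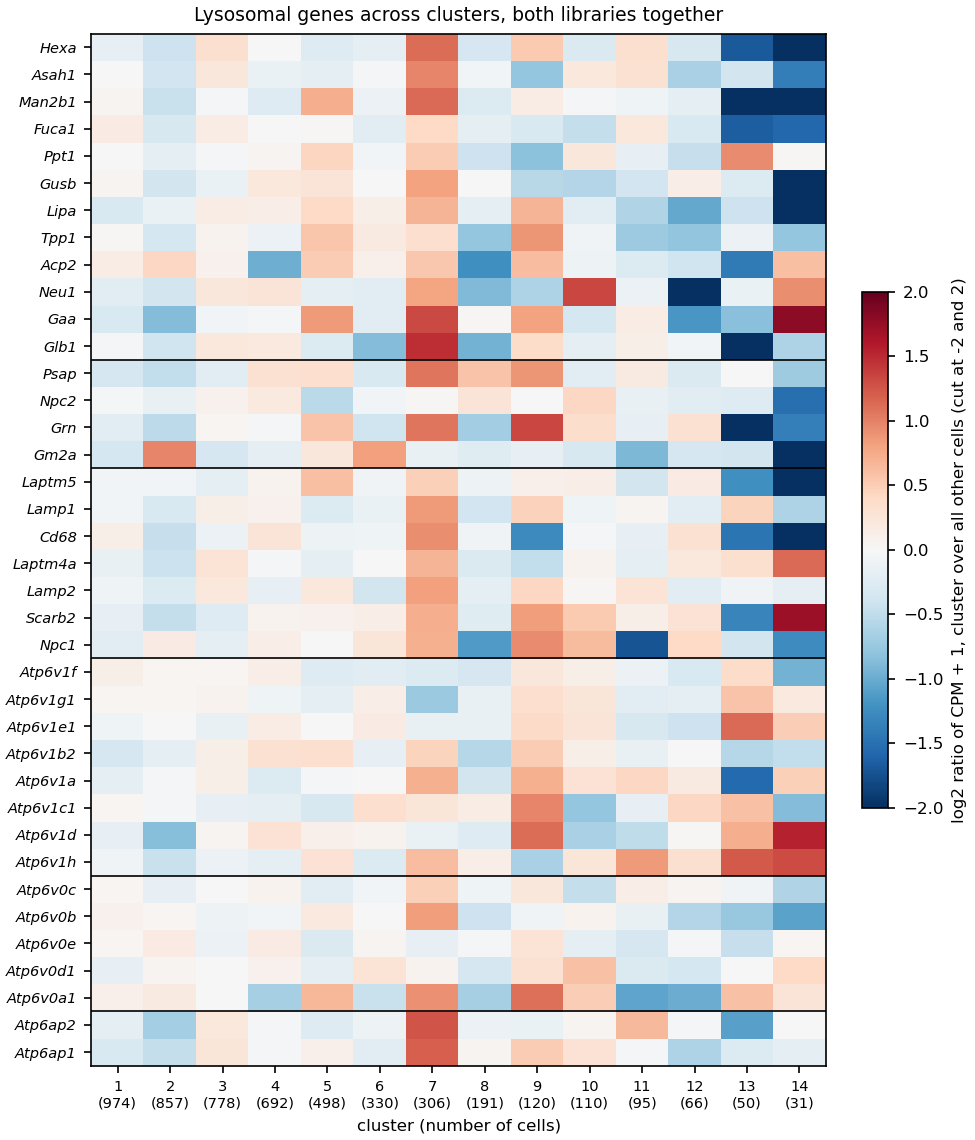
Log2 ratio of CPM + 1 in each cluster over all other cells for the 38 genes, grouped by role and ordered by level, both libraries together; red is higher and blue lower, with colours cut at -2 and 2. Cluster 7 is red for most enzymes and membrane proteins and for the cofactors Psap and Grn, and pale or blue for several V1 subunits.

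Cluster 7 was the clearest group. It held 98 YFP-negative and 208 YFP-positive cells and was led by *Xylt2*, *Gm28437*, *mt-Nd4l* and *Icam1*. 22 of the 38 genes were past 1.5-fold higher than in all other cells and 1 was lower, where 17.5% of all genes tested were higher and 21% lower. For 18 of the 22 the counting interval was above 0, and 15 were past 1.5-fold higher in both libraries. The share of all genes was not computed for these counts. *Psap* had 2079 CPM (1907 to 2261) against 990 CPM in the other cells, *Cd68* 1001 against 526 CPM, *Grn* 997 against 475 CPM, and *Hexa* 886 against 408 CPM. The largest ratios among genes with at least 50 UMIs in the cluster were those of *Atp6ap2* (1.26, 0.92 to 1.57), *Atp6ap1* (1.201, 0.83 to 1.55), *Man2b1* (1.13, 0.88 to 1.37) and *Hexa* (1.12, 0.92 to 1.31).

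The roles did not move alike in cluster 7. The summed log2 ratio over the other cells was 1.24 for the accessory genes, 0.90 for enzymes, 0.74 for membrane proteins, 0.72 for cofactors and 0.51 for V0, but -0.17 for V1. The V1 genes were divided, with a median of 0.05: *Atp6v1a* (0.71, 0.01 to 1.33) and *Atp6v1h* (0.62, -0.37 to 1.46) were past 1.5-fold higher, on 21 and 11 UMIs. *Atp6v1g1* was lower (-0.74, -1.20 to -0.32), also within the YFP-negative (-1.0025) and the YFP-positive library (-0.62). *Npc2* (0.02), *Gm2a* (-0.14), *Atp6v0e* (-0.17) and *Atp6v1f* (-0.27) had intervals that held 0. Cells of cluster 7 differed in more than lysosomal genes: they had a median of 800.5 UMIs, 2.44% mitochondrial and 7.56% ribosomal protein UMIs, and macrophage markers summed to 34109 CPM. In cluster 1 these values were 2124 UMIs, 0.973%, 21.4% and 21715 CPM. With ribosomal protein and mitochondrial genes left out of the totals, the set took 1.67% of UMIs in cluster 7 against 1.196% in the other cells (log2 0.48, 0.43 to 0.53). With these totals 16 genes were past 1.5-fold higher, and the share of all genes was not computed. Among cells with under 1000 UMIs, the set took 1.49% and 1.46% of UMIs in cluster 7 and 1.19% and 0.895% in the other cells (YFP-negative and YFP-positive).

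In cluster 9, of 120 cells led by *Cd209g*, *Cd209f* and *Fcna*, 12 genes were past 1.5-fold higher and 5 lower, against 18.6% and 23.7% of all genes tested. The counting interval excluded 0 for 7 of the 12 and 3 of the 5, and 3 calls rested on fewer than 10 UMIs. For these interval counts too the share of all genes was not computed. *Grn* had 1199 CPM (1041 to 1374) against 476 CPM in the other cells (log2 1.33, 1.12 to 1.53), with 1.13 within the YFP-negative and 1.43 within the YFP-positive library. *Psap* had 1859 against 1005 CPM (0.89, 0.72 to 1.05). *Cd68* was lower, at 226 CPM (161 to 309) against 546 CPM (-1.27, -1.76 to -0.82), with -1.28 and -1.24 within the libraries, and *Asah1* (-0.78) and *Ppt1* (-0.82) were also lower. *Cd68* and *Grn*, both past 1.5-fold higher in cluster 7, thus lay on opposite sides in cluster 9. Summed by role, the log2 ratio in cluster 9 was 0.71 for cofactors, 0.38 for V1, 0.20 for accessory genes and 0.18 for V0. It was 0.08 for enzymes and 0.01 for membrane proteins.

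*Gm2a* was higher in clusters 2 and 6. It was the only gene of the set past 1.5-fold higher in cluster 2 (*Fhl3*, *Slc39a1*, *Notch2*), with 309 CPM (271 to 351) against 156 CPM (0.98, 0.78 to 1.18), and in cluster 6 (*Slc39a1*, *Notch2*), with 280.4 against 159 CPM (0.81, 0.60 to 1.02). In those clusters the shares of all genes tested that were past 1.5-fold higher were 5.0% and 2.3%. A count of 1 gene of 38 is near these shares, and *Gm2a* was picked after its values were seen. Cluster 2 held 26 YFP-negative and 831 YFP-positive cells, so its values rest mostly on the YFP-positive library. Within the YFP-positive library *Gm2a* was at 1.01 there, and within the YFP-negative library at 0.03, on 5 UMIs. Cluster 6 held 79 and 251 cells, and *Gm2a* was at 0.82 in each library. The set as a whole was low in cluster 2, at 0.831% (0.811 to 0.852) of UMIs against 0.965% in the other cells. The median log2 ratio of the 38 genes was -0.29 there, against 0.01 for all genes tested. Summed by role it was -0.59 for accessory genes, -0.35 for enzymes, -0.27 for membrane proteins, -0.24 for cofactors, -0.03 for V1 and -0.002 for V0. Past 1.5-fold lower were *Gaa*, *Atp6v1d* and *Atp6ap2* in cluster 2 (background 7.11%) and *Glb1* in cluster 6 (background 6.11%).

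Single genes were past 1.5-fold in further clusters. In clusters 4, 5 and 8 their numbers were near or below the shares of all genes. The genes named were picked after their values were seen. In cluster 4 (*S100a4*, *Ccr2*, *Lgals3*), *Acp2* was at 24.5 CPM (17.0 to 34.0) against 49.1 CPM (-0.98, -1.50 to -0.49), lower in both libraries, and *Atp6v0a1* at -0.67 (-1.15 to -0.21), which are 2 genes lower against a background of 6.38%, with 0 higher against 1.59%. In cluster 5 (*mt-Co2*, *Mmp9*), *Gaa*, *Man2b1*, *Laptm5* and *Atp6v0a1* were past 1.5-fold higher, where 17.0% of all genes were, and 0 were lower, where 8.23% were. *Laptm5* had 961 CPM (880.0 to 1048) there against 634 CPM. In cluster 8 (*Il1b*, *Ccl4*), 7 genes were lower, among them *Grn* at 306 against 497 CPM (-0.70, -0.98 to -0.43), against 26.2% of all genes, and 0 were higher, against 6.28%. Of the 7, 4 rested on fewer than 10 UMIs. *Psap* was at 1484 against 1002 CPM (0.57, 0.44 to 0.69) in the same cells, just inside the threshold.

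In cluster 10 (*Ifit2*, *Ifit3*), *Neu1* had 88.8 CPM (53.5 to 139) on 19 UMIs against 34.6 CPM (1.33, 0.59 to 1.99), higher in both libraries, and 3 genes were past 1.5-fold higher in all against 8.54% of all genes, and 2 lower against 16.6%. The cycling-cell-like cluster 12 (*Top2a*, *Mki67*) had 0 genes higher and 8 lower, against backgrounds of 17.2% and 20%. *Atp6v0b* (-0.59, -0.94 to -0.25), *Asah1* (-0.65) and *Lipa* (-1.02, on 10 UMIs) were among the 8, of which 3 rested on fewer than 10 UMIs. In cluster 11 (*Cxcl2*, *Cxcl1*), 2 genes were higher and 5 lower, against 7.26% and 22.2%, with *Gm2a* at -0.90 (-1.57 to -0.30). Clusters 1 (*Egfl7*, *Pf4*) and 3 (*Fos*, *Jun*) had 0 genes past the fold in either direction, where 4.16% and 2.63% of all genes were lower and 0.347% and 1.22% higher. The counts in clusters 10, 11 and 12 were also near or below the shares of all genes. Genes named in them were likewise picked after their values were seen.

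The clusters that carried markers of other cell types had the lowest shares. Schwann-cell-like cluster 13 (50 cells, Schwann markers 49333 CPM, macrophage markers 8241 CPM) had 0.788% of UMIs on the set. Cluster 14 (31 cells) carried both mural markers (12512 CPM) and fibroblast markers (8624 CPM), with macrophage markers at 4061 CPM and endothelial markers at 830 CPM. It had 0.612% of UMIs on the set. In cluster 13, 6 genes were higher and 13 lower, against 21.7% and 38.5% of all genes. *Cd68* (-1.46), *Laptm5* (-1.23) and *Grn* (-2.09) were lower, while *Lamp1* was at 786 CPM against 578 CPM (0.44, 0.00 to 0.85) and *Psap* at -0.01. In cluster 14, 7 were higher and 20 lower, against 24.7% and 40.2%. *Laptm4a* was higher there at 864 against 393 CPM (1.13, 0.70 to 1.54), and *Laptm5* lower at 86.4 against 657 CPM on 5 UMIs. Of the calls in clusters 13 and 14, 14 and 19 rested on fewer than 10 UMIs in the cluster.

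**Figure D4:**
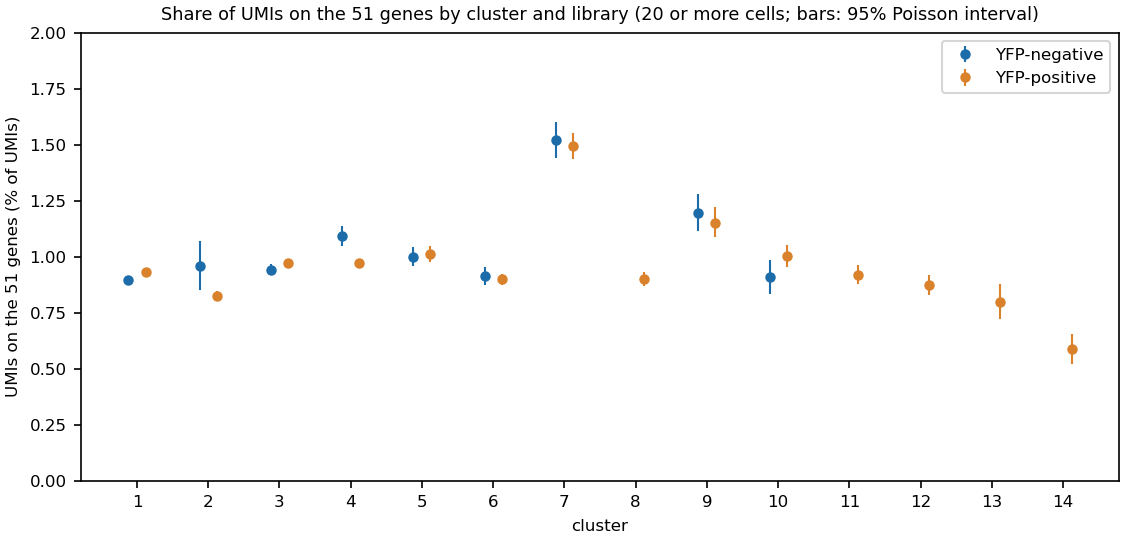
Share of UMIs on the 51 genes in each cluster, in percent, for the YFP-negative (blue) and YFP-positive (orange) cells where a library had 20 or more cells, with Poisson 95% intervals. Cluster 7 is highest in both libraries, at 1.52% and 1.49%, and cluster 9 follows at 1.195% and 1.15%.

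Within clusters, the log2 ratio of the set, YFP-positive over YFP-negative, was 0.06 (0.02 to 0.10) in cluster 1, 0.05 (-0.00 to 0.09) in cluster 3, 0.14 (0.00 to 0.29) in cluster 10 and -0.02 (-0.12 to 0.07) in cluster 7. It was lowest, among clusters with 20 or more cells of each library, in cluster 2 (-0.21, -0.38 to -0.04) and in cluster 4 (-0.16, -0.23 to -0.10), where the set took 1.09% of UMIs in 72 YFP-negative and 0.974% in 620 YFP-positive cells. Cluster 7 held 9.38% of YFP-negative and 5.13% of YFP-positive cells. Without it, the set took 0.945% and 0.935% of UMIs.

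Depth moved with the share of the set, and differently in the libraries. In YFP-negative cells the set took 1.31% (1.25 to 1.38) of UMIs in cells with under 1000 UMIs and 0.921% (0.905 to 0.936) in cells with 2000 to under 4000. In YFP-positive cells these shares were 0.964% (0.944 to 0.985) and 0.947% (0.936 to 0.957). Without cluster 7 they were 1.19% and 0.919% in YFP-negative and 0.895% and 0.947% in YFP-positive cells. The kinds of cells also differed with depth. Cluster 2, with a median of 848 UMIs and 0.831% of UMIs on the set, held 2.49% of YFP-negative and 20.5% of YFP-positive cells. Shares by depth were not computed without cluster 2, and the part of cluster composition in them was not tested. The part of depth in the equal-weight ratio given above was not tested.

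RNA outside cells carried the genes as well. In barcodes with 10 to 100 UMIs the set took 1.18% of UMIs in the YFP-negative and 1.09% in the YFP-positive library, more than in cells. Of the 38 genes, 32 and 28 were lower in cells than in these barcodes, where 55.0% and 53.8% of all genes were. Past 1.5-fold lower in cells were 3 and 0 of them, where 11.3% and 6.85% of all genes were. The median log2 ratio of cells over these barcodes was -0.28 and -0.19 for the 38 genes and -0.07 and -0.05 for all genes. *Lamp1* was at 0.02 and -0.06, *Psap* at -0.48 and -0.32, and *Atp6v0b* at -0.62 and -0.46. The libraries differed in these barcodes too. There the V0 genes took 0.216% of UMIs in the YFP-negative and 0.183% in the YFP-positive library, and the enzymes 0.217% and 0.190%. In cells the shares were 0.155% and 0.144% for V0 and 0.189% and 0.178% for enzymes. The V1 genes took 0.114% and 0.117% in these barcodes. Ribosomal protein genes took 16.3% and 18.0% of UMIs in these barcodes and 19.5% and 20.4% in cells. The part of free RNA in the levels and in the ratios between the libraries was not tested beyond the removal of 10% described at the end.

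**Figure D5:**
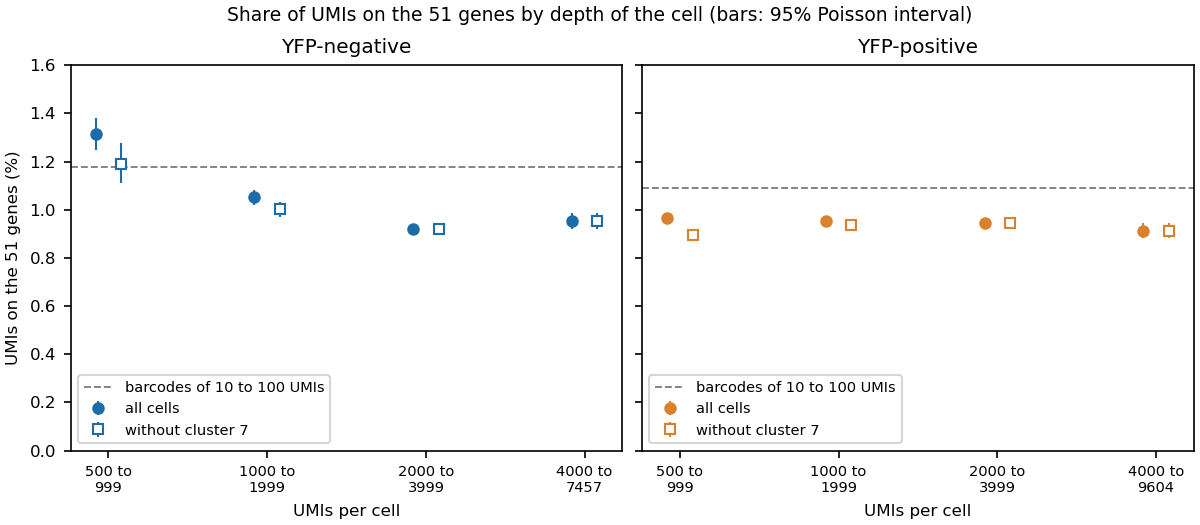
Share of UMIs on the 51 genes, in percent, by the UMI total of the cell, for YFP-negative (left) and YFP-positive (right) cells, with all cells (filled) and without cluster 7 (open); bars are Poisson 95% intervals and the dashed line is the share in barcodes of 10 to 100 UMIs. The YFP-negative share falls from 1.31% in the shallowest cells to 0.921% at 2000 to under 4000 UMIs, and the YFP-positive share stays between 0.913% and 0.964%.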

How the data were processed

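Droplet libraries (10x Chromium v2) of pooled, sorted nerve macrophages, 1 YFP-negative and 1 YFP-positive, were analysed from the matrices the authors deposited: raw UMI counts per gene and barcode, unfiltered, made with Cell Ranger on GRCm38/mm10 (3.0.2 per the submitters' processing notes, which also name Seurat 2.2.0; the annotation release is not given in the sources used here). The study's methods name an earlier Cell Ranger version, and which version made the deposited matrices is not clear. The study's filter on mapped reads cannot be applied to UMI counts. No column was left unmapped (0). Barcodes with at least 500 UMIs and 200 genes were kept as cells, doublets included.

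Counts were summed per library and given as CPM with exact Poisson 95% intervals. Ratios are log2 of CPM + 1 with conditional binomial intervals. A gene was called past 1.5-fold at a mean of at least 20 CPM. Shares of cells used 600 UMIs per cell. Cells of both libraries were clustered on 2000 variable genes, 20 components and 20 neighbours (Leiden resolution 0.8), leaving out 146 genes of the set and related lists. Values are given in full for the 15 members with the highest mean CPM, the 5 highest and 5 lowest log2 ratios, V-ATPase subunits with paralogs and members at 0, for up to 3 genes of each related list by size of ratio, and for the 10 genes most like the summed set; genes named in clusters were chosen after their values were seen. Members and lists were chosen with earlier results of these data known. The ratio and correlation steps were run on simulated counts. This checks the code and says nothing of how the genes varied in these cells. Python 3.11.15, numpy 2.4.6, scipy 1.17.1, pandas 2.3.3, scikit-learn 1.9.0, leidenalg 0.10.2 and matplotlib 3.10.9 were used. Promoter sequences were RefSeq's for GRCm38.p6. Some genes of the related lists are not reported here by name.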

Additional observations from a re-analysis of the deposited data

Results flagged for a closer look

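Barcodes with 101 to 499 UMIs entered no comparison, and they carried the lysosomal genes as well. The set took 1.11% of the 88863 UMIs of 387 barcodes in the YFP-negative library. In the YFP-positive library it took 1.01% of the 420931 UMIs of 1816 barcodes. These shares lay between those of cells (0.967% and 0.949%) and of barcodes with 10 to 100 UMIs (1.18% and 1.09%).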

How the results depend on the processing

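No paired analysis was possible because each group had 1 library. Of 288 log2 ratios of 24 single genes under 12 settings, 271 moved by less than their counting interval and 17 moved beyond it. Of 216 values of sets, counts and shares, 188 stayed within the counting interval of the reported value (counts of genes within 1.5 times) and 28 did not, all given here. The number of genes past 1.5-fold higher in YFP-negative cells was 2 with counts thinned to 600 UMIs and 1 with no filter on level (*Atp6v1g2*). The median log2 ratio was -0.11 with each cell weighted equally, -0.054 thinned and 0 with no filter. The summed log2 ratio was -0.0041 with at least 1000 UMIs per cell, -0.10 weighted equally and -0.098 thinned. With equal weights and thinned, it was -0.18 and -0.19 for enzymes and -0.074 and -0.081 for cofactors. It was -0.082 for membrane proteins with equal weights and -0.16 for V0 thinned. The YFP-negative share of UMIs was 0.9497% with at least 1000 UMIs, 0.945% without cluster 7, 1.02% weighted equally, 1.017% thinned and 0.943% with 10% free RNA removed. The YFP-positive share was 0.935% without cluster 7 and 0.933% with free RNA removed. The median share of cells was 4.88% and 4.11% at 300 UMIs and 26.1% and 20.2% without thinning, with a log2 ratio of shares of -0.078 and -0.30. With ribosomal protein and mitochondrial genes left out of the totals, 1 gene was past the fold higher in cluster 8, and the share of all genes was not computed. The cause of these shifts was not tested. The settings without cluster 7, without clusters 13 and 14 and without ribosomal protein and mitochondrial genes were chosen after seeing the data. Other resolutions were computed for 8 of the 14 clusters (2, 4, 7, 8, 9, 12, 13 and 14), and of these 4 and 8 had no counterpart at resolution 0.4. With 1 library per group, differences between sorts and libraries cannot be told apart from origin, and genes under 20 CPM were too shallow for a fold.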
